A study of Mus musculus with 12 samples.

Results

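Of the 1881 miRNAs on the array, 4 are described here, namely mmu-miR-21a-5p, mmu-miR-199a-3p, mmu-miR-199a-5p and mmu-miR-214-3p, taken by name from the array files and written below without the mouse prefix. MiR-21 is a stress-responsive miRNA known from heart fibroblasts, where it is linked to fibroblast survival and scarring. MiR-199a and miR-214 are mesenchymal miRNAs of one non-coding transcript, Dnm3os, which runs antisense to the dynamin gene Dnm3. MiR-199a is known for roles in cardiomyocyte growth and the response to low oxygen, and miR-214 for protection of cardiomyocytes from calcium overload.

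Heart muscle of 5-month-old male C57BL6/J mice was profiled on 12 one-colour arrays, each for 1 heart, with 3 arrays in each of 4 groups. The groups were control mice (C), control mice given pargyline, an inhibitor of monoamine oxidase (MAO), at a daily 50 mg/kg (C + P), mice made diabetic beforehand by a short course of daily injections of streptozotocin, which kills pancreatic beta cells, at 50 mg/kg (D), and diabetic mice given the same dose of pargyline (D + P). Pargyline, or vehicle in mice without it, was given for 12 weeks. Streptozotocin diabetes models loss of beta cells in adult mice, and whole tissue was profiled. No fibroblast marker other than the 4 miRNAs themselves was among the lists used, so the data do not tie them to a cell type, and in bulk tissue fewer cells of a type and less RNA per cell cannot be told apart. Of 6 cardiomyocyte marker miRNAs, 5 were detected on all 12 arrays and miR-208b-3p, which is low in the adult heart, on 0.

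The arrays differed in brightness and layout. Detected miRNAs of one C array summed to between 27107 and 35028 intensity units, compared with 57895 to 89040 for C + P, 48104 to 61254 for D and 39661 to 58631 for D + P. Slide 1 held the C and D arrays and slide 2 the pargyline groups, so pargyline and slide cannot be told apart. On both slides the non-diabetic hearts were in array row 1 and the diabetic hearts in row 2, so diabetes and array row cannot be told apart either.

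The sequences are shown because the seed sets which targets a miRNA pairs with, and because 1 of the 4 has the same mature sequence as a paralog. Mature sequences are those of RefSeq (GRCm38.p6, 4 of 4 matched), written 5′ to 3′ with the seed, bases 2 to 8, in capitals.
miR-21a-5p: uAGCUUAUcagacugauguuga
miR-199a-3p: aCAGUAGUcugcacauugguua
miR-199a-5p: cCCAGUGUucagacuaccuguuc
miR-214-3p: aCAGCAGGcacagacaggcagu
miR-199b-3p: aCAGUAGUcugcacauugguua
miR-21c: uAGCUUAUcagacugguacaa
miR-761: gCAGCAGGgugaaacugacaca
No seed was shared between any of the 4 miRNAs. The mature sequence of miR-199b-3p is identical to that of miR-199a-3p, and miR-199b-3p had no row of its own on the array, so the miR-199a-3p signal may come from either. MiR-21c carries the seed of miR-21a-5p and miR-761 that of miR-214-3p, and both were detected on 0 of the 12 arrays. The sequence of miR-199b-5p was missing from those used. Its seed and its likeness to miR-199a-5p were therefore not compared, and a shared signal of these 2 was not tested.

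In GRCm38.p6, miR-21a-5p lies at chr11:86584120-86584141 on the minus strand, within the span of the protein-coding gene Vmp1. The 3 others share a locus on the plus strand of chromosome 1, within the spans of Dnm3 and of the long non-coding RNA Dnm3os. There miR-199a-5p lies at chr1:162217844-162217866, miR-199a-3p at chr1:162217883-162217904 and miR-214-3p at chr1:162223438-162223459, with 5444 bases between the 2 hairpins. A second miR-199a hairpin lies in Dnm2, with miR-199a-5p at chr9:21496537-21496559 and miR-199a-3p at chr9:21496498-21496519, both on the minus strand. MiR-199b-3p lies in Dnm1 at chr2:32318524-32318545 on the plus strand. The array thus reads miR-199a from both hairpins together, and only the chromosome 1 copy is next to miR-214.

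MiR-21a-5p, miR-199a-3p and miR-199a-5p were detected on all 12 arrays. MiR-214-3p was detected on 6 of 12 and could not be tested. The opposite strands miR-21a-3p and miR-214-5p, and the relative miR-21b, were detected on 0 arrays. A further relative, miR-199b-5p, was detected on all 12 arrays and is given beside the members.

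Scanner intensities, before any normalization, are given here for replicates 1, 2 and 3 of each group. MiR-21a-5p read 79.4, 61.7 and 69.4 in C, 164, 163 and 265 in C + P, 134, 132 and 103 in D, and 44.2, 107 and 131 in D + P. All C + P and D arrays were above all C arrays, and the D + P arrays spread from below C into the range of D. MiR-199a-3p read 20.8, 19.7 and 21.1 in C, 51.9, 71.8 and 119.5 in C + P, 69.8, 69.96 and 45.9 in D, and 16.8, 43.1 and 57.9 in D + P. The C arrays lay close together, and D + P replicate 1 was below all of them.

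MiR-199a-5p read 10.3, 9.07 and 8.25 in C, 22.03, 21.9 and 38.5 in C + P, 23.5, 20.3 and 19.4 in D, and 12.7, 24.6 and 25.6 in D + P. All 9 other arrays were above the 3 C arrays. The scanner software's own error was 7.25 to 8.02% of the signal for miR-21a-5p, 7.34 to 10.9% for miR-199a-3p and 8.95 to 17.8% for miR-199a-5p. For miR-199a-5p this error was largest on the dim C arrays. Array brightness differed between the groups too, and the median of the 128 miRNAs detected on all arrays was higher by 0.77 in D and by 1.15 in C + P than in C on the unnormalized log2 scale.

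**Figure D1:**
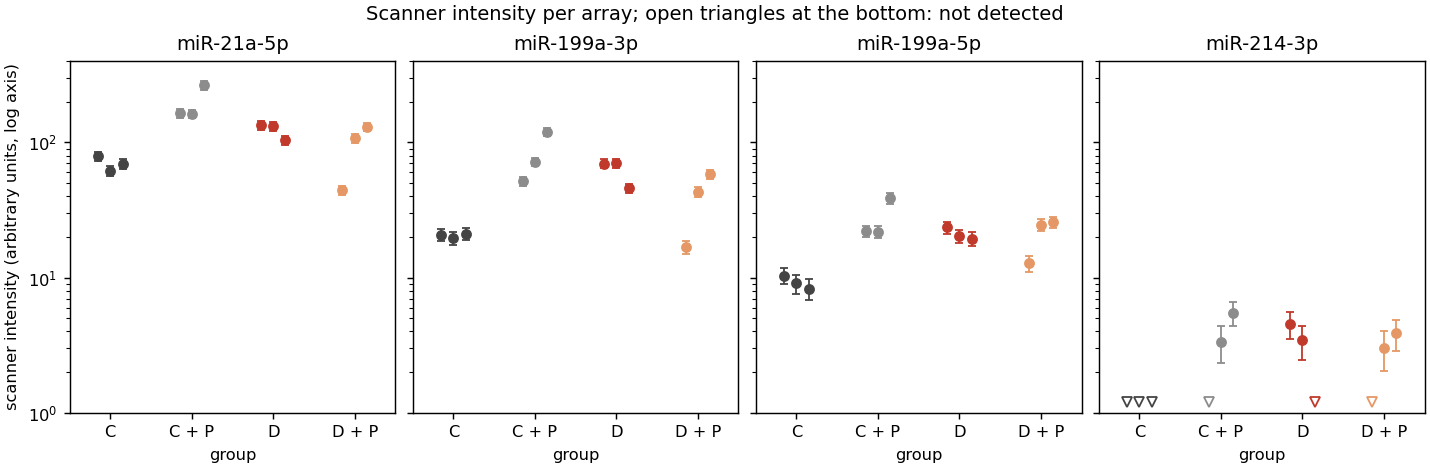
Scanner intensity of each miRNA on each of the 12 arrays (log axis, arbitrary units) by group, with replicates 1 to 3 from left to right and bars for the scanner software's error; open triangles mark arrays without detection and their height carries no value. C arrays are low for all 4 miRNAs, and miR-214-3p was detected on 0 C arrays and on 2 arrays of each other group.

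MiR-214-3p was detected on 0 of 3 C arrays and on 2 of 3 arrays in each of C + P, D and D + P. It read 3.34 and 5.51 on C + P replicates 2 and 3, 4.54 and 3.43 on D replicates 1 and 2, and 3.02 and 3.87 on D + P replicates 2 and 3, with scanner errors of 20.5 to 32.5% of the signal. The lowest detected signal of any miRNA on an array was 1.34 to 2.24, so these readings were near the limit. In C + P, D and D + P the array without detection was the dimmest of its group (summed intensities of 57895, 48104 and 39661), and the 3 C arrays were dimmer than all others. The part of brightness in the detection was not tested. No fold is given, because with undetected values set to the lowest detected signal and then normalized, the C arrays (1.57 to 1.69 on the log2 scale, none detected) came out above both detected C + P arrays (1.18 and 0.83).

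To compare groups, log2 intensities of the 128 miRNAs were normalized by cyclic loess and fitted with limma, with Benjamini-Hochberg adjusted p-values over all 128 and a threshold of 0.05. Each array is 1 mouse. The p-values rest on the spread between mice of the same group, estimated per miRNA from all 4 groups together and moderated by limma over the miRNAs. Levels below are normalized log2 intensities, mean ± SD (n = 3), and changes are differences of these means with their standard error (SE).

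MiR-199a-3p, one arm of the miR-199a hairpin, was high in D and in C + P and low in C and D + P. It measured 5.82 ± 0.24 in D, 5.77 ± 0.18 in C + P, 5.02 ± 0.51 in D + P and 4.91 ± 0.08 in C. The D and C + P arrays overlapped, as did the D + P and C arrays, and no array of the first pair of groups overlapped with the second. Its rise in D versus C was 0.91 (SE 0.22, 1.88-fold, limma adjusted p = 0.0081) and that in C + P versus C 0.86 (SE 0.22, 1.81-fold, limma adjusted p = 0.026). In D + P it fell by 0.80 against the level of D (SE 0.22, limma adjusted p = 0.017) and by 0.75 in D + P versus C + P (SE 0.22, limma adjusted p = 0.045). Without D + P replicate 1 these differences were -0.49 (limma adjusted p = 0.041) and -0.45 (limma adjusted p = 0.094). With all arrays but only the 2 groups compared in the fit, their limma adjusted p was 0.091 and 0.14. D + P and C differed by 0.11 (95% interval -0.37 to 0.59, limma adjusted p = 0.81).

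MiR-199a-5p, the other arm, had the same order of group means. It measured 4.39 ± 0.06 in D, 4.25 ± 0.11 in C + P, 4.14 ± 0.27 in D + P and 3.74 ± 0.17 in C. Only the C arrays stood apart, and 1 D + P array reached into their range. It rose by 0.65 in D versus C (SE 0.15, 1.57-fold, limma adjusted p = 0.0073) and by 0.51 in C + P versus C (SE 0.15, 1.42-fold, limma adjusted p = 0.030). Against D, D + P differed by -0.25 (95% interval -0.58 to 0.08, limma adjusted p = 0.17), and against C + P by -0.11 (-0.45 to 0.22, limma adjusted p = 0.55). D + P was 0.40 above C without passing the threshold (95% interval 0.06 to 0.73, limma adjusted p = 0.22).

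MiR-21a-5p did not pass the threshold in D versus C and was lowest in D + P. It measured 7.09 ± 0.12 in C + P, 6.79 ± 0.08 in D, 6.69 ± 0.10 in C and 6.36 ± 0.35 in D + P. C + P arrays were above the arrays of all other groups, while D and C arrays overlapped, as did C and D + P arrays. The difference of D from C was 0.10 (SE 0.17, 95% interval -0.26 to 0.46, limma adjusted p = 0.62), and that of C + P from C was 0.40 (SE 0.17, limma adjusted p = 0.074). MiR-21a-5p fell by 0.43 in D + P versus D (SE 0.17, limma adjusted p = 0.047) and by 0.73 in D + P versus C + P (SE 0.17, limma adjusted p = 0.018). Without D + P replicate 1 these differences were -0.22 (limma adjusted p = 0.16) and -0.53 (limma adjusted p = 0.020). With all arrays but only the 2 groups compared in the fit, their limma adjusted p was 0.16 and 0.13. The D + P versus D call was lost in 11 of the 12 fits that left out 1 array, and it passed in 3 of 25 other settings. The call in D + P versus C + P passed in 14 of these 25. D + P versus C gave -0.33 (95% interval -0.69 to 0.03, limma adjusted p = 0.31).

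MiR-199b-5p, from the hairpin in Dnm1, passed the threshold in none of these 5 comparisons. It measured 4.74 ± 0.06 in C, 5.03 ± 0.18 in C + P, 5.04 ± 0.19 in D and 4.65 ± 0.28 in D + P. Its differences were 0.30 in D versus C (limma adjusted p = 0.13) and -0.40 in D + P versus D (limma adjusted p = 0.057).

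**Figure D2:**
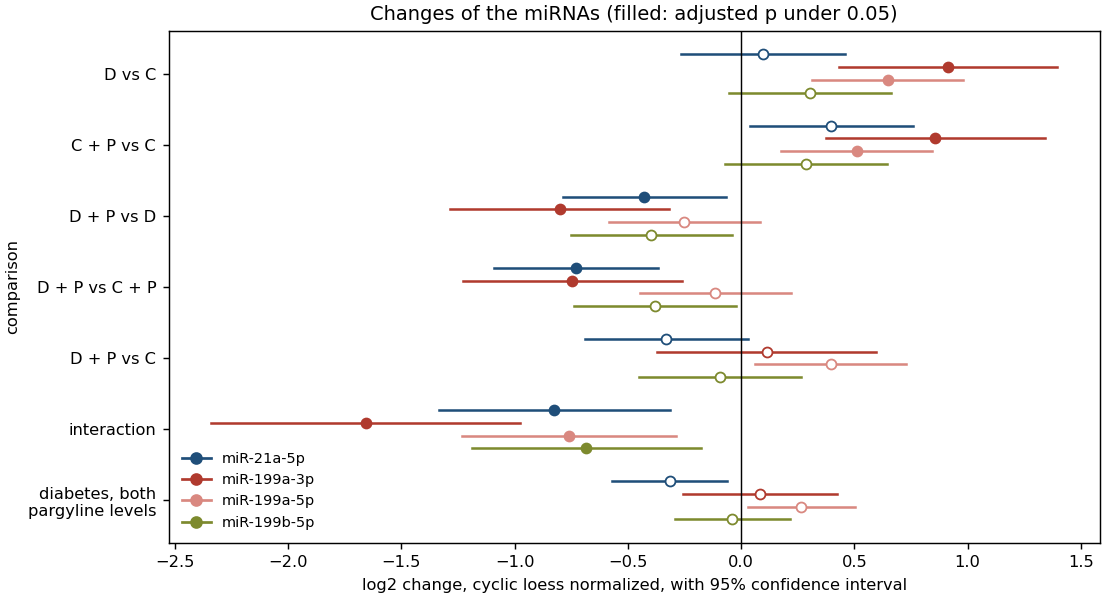
Log2 changes of the 3 tested miRNAs and of miR-199b-5p in 7 comparisons (rows), on cyclic loess normalized intensities, with 95% confidence intervals as lines; filled points have an adjusted p under 0.05. MiR-199a-3p and miR-199a-5p lie to the right of 0 in D versus C (0.91 and 0.65) while miR-21a-5p is at 0.10.

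Large shares of all miRNAs passed the same test, and the members' counts are to be read against them. In D versus C, 2 of the 3 tested members passed, beside 50% of the 128 miRNAs, and 2 had arrays that did not overlap between groups, beside 69.5%. In C + P versus C, 2 of 3 passed beside 36.7%, and 3 of 3 did not overlap beside 75.8%. In D + P versus D, 2 of 3 passed beside 53.9%, and 2 did not overlap beside 56.2%. In D + P versus C + P, 2 of 3 passed beside 13.3%, and 2 did not overlap beside 43%. In D + P versus C, 0 of 3 passed beside 1.56%, and 0 did not overlap beside 12.5%. Without adjustment, the limma p of miR-199a-5p alone of the 3 was under 0.05 there, beside 23 of the 128 miRNAs. The methods' t-test, here with Benjamini-Hochberg in place of the paper's adjusted Bonferroni correction, passed 0 members, beside 0 of the 128. With 3 members, these counts do not set the members apart from other miRNAs.

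The effect of diabetes differed between untreated and pargyline-treated hearts for each of the 3 tested miRNAs. The interaction, which is the change of D + P versus C + P minus that of D versus C and is free of an additive slide effect, was -1.66 for miR-199a-3p (SE 0.31, limma adjusted p = 0.0028). It was -0.83 for miR-21a-5p (SE 0.23, limma adjusted p = 0.0093) and -0.76 for miR-199a-5p (SE 0.22, limma adjusted p = 0.0094). MiR-199b-5p passed too, with -0.68 (SE 0.23, limma adjusted p = 0.020). Thus 3 of 3 members passed, beside 70.3% of the 128 miRNAs. Averaged over both pargyline levels, the effect of diabetes passed for 0 of 3 members, beside 1.56%, with -0.32 for miR-21a-5p, 0.27 for miR-199a-5p and 0.08 for miR-199a-3p. By the unadjusted limma p, 2 of these 3 (miR-21a-5p and miR-199a-5p) were under 0.05, beside 18 of the 128 miRNAs.

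These calls depended on the processing, including how array brightness was treated, and on single arrays. With mean control feature signal (10 features) as a covariate, a setting chosen after the data were seen, 0 members passed in each of the 7 comparisons. How many of all miRNAs passed in that fit is not given here, so the members cannot be set against them. The control signal itself (mean log2) was 10.29 to 10.56 on C arrays and 11.07 to 11.21 on D arrays. Brightness and diabetes can thus hardly be told apart in that fit, and its loss of calls decides nothing. In that fit the D versus C differences were 0.34 for miR-199a-3p, 0.39 for miR-199a-5p and -0.24 for miR-21a-5p. With the authors' own normalized values, 1 member passed in D versus C, beside 47 of the 128 miRNAs. This was miR-199a-3p with 0.88, while miR-199a-5p gave 0.14. The interaction of miR-199a-5p did not pass with the authors' values (-0.41), with a filter of detection in at least 1 group (-0.49) or on at least 6 arrays (-0.50), or after scaling to the 75th percentile (-0.24), and that of miR-21a-5p did not after this scaling (-0.62). Of the 12 fits that left out 1 array, 11 moved the D + P versus D count from 2 to 1 or 0. It was 0 without D replicate 1 or D replicate 2, where 26 of 128 and 14 of 129 miRNAs passed, beside 69 of 128 with all arrays. For D + P versus C + P the count fell in 10 of the 12, to 0 without D + P replicate 2 or any 1 of the C + P arrays. Without C + P replicate 1, 2 or 3, the miRNAs that passed were 7, 1 and 1 of 128, beside 17 with all arrays. In C + P versus C the count fell to 0 without C replicate 2, C replicate 3, C + P replicate 2 or C + P replicate 3, and to 1 without C + P replicate 1. In these fits, in that order, 3 of 131, 3 of 130, 4 of 128, 3 of 128 and 23 of 128 miRNAs passed, beside 47 of 128 with all arrays. Calls thus fell over all miRNAs and not in the members alone.

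**Figure D3:**
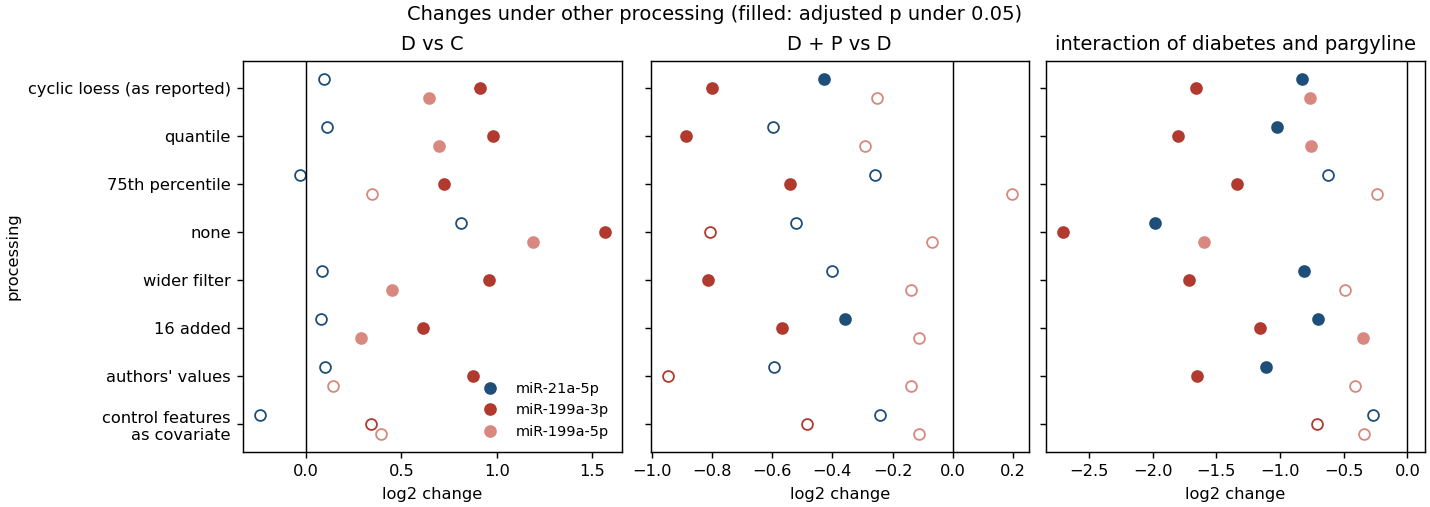
Log2 changes of miR-21a-5p, miR-199a-3p and miR-199a-5p (horizontal axis) in 3 comparisons under 8 ways of processing (rows); filled points have an adjusted p under 0.05. MiR-199a-3p keeps its sign in all rows, and the bottom row, with control features as covariate, holds no filled point.

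How miR-21a-5p moved against miR-199a was read within each array, as the log2 intensity of miR-21a-5p minus the mean log2 intensity of miR-199a-3p and miR-199a-5p. Differences of this value between groups are compared, since levels of different probes cannot be. On normalized values it was 2.51, 2.21 and 2.38 in C, 2.29, 2.02 and 1.94 in C + P, 1.62, 1.67 and 1.77 in D, and 1.83, 1.77 and 1.75 in D + P. The diabetic hearts of both groups were below the non-diabetic hearts of both groups, with no overlap, and C and C + P overlapped. Lack of overlap was common on these arrays, for 69.5% of the 128 miRNAs in D versus C and 43% in D + P versus C + P. No such share was taken for differences between miRNAs. No p is given, because the value is a score over miRNAs that were chosen with results of these arrays known.

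The group means were 2.37 ± 0.15 in C, 2.08 ± 0.18 in C + P, 1.68 ± 0.07 in D and 1.78 ± 0.04 in D + P (SD, n = 3). The change was -0.68 in D versus C and -0.30 in D + P versus C + P, each within 1 slide, against a pooled SD of 0.12. Against miR-199a-3p alone it was -0.82 in D versus C and 0.02 in D + P versus C + P, and against miR-199a-5p alone -0.55 and -0.61. In D + P versus C + P, miR-21a-5p and miR-199a-3p changed alike (-0.73 and -0.75), while miR-199a-5p changed by -0.11. With the authors' values the changes of these 3 were -1.01, -0.78 and -0.27, so the likeness to the 3p arm depended on the processing. Against miR-199b-5p, which is not a member, it was -0.21 and -0.35.

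A factor common to all miRNAs of an array cancels from this value, while other effects of brightness do not. Without normalization it ranged from 2.21 to 2.44 for C, 1.97 to 2.28 for C + P, 1.72 to 1.81 for D and 1.60 to 1.76 for D + P. The C arrays were also the dimmest, and the part of brightness was not tested. D + P replicate 1 had a lower miR-199a-3p intensity than any C array, and its unnormalized value of 1.60 was the lowest of the 12. Over 20 other settings the D versus C change lay between -0.75 and -0.37, the smallest with 16 added to the intensities before log2.

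**Figure D4:**
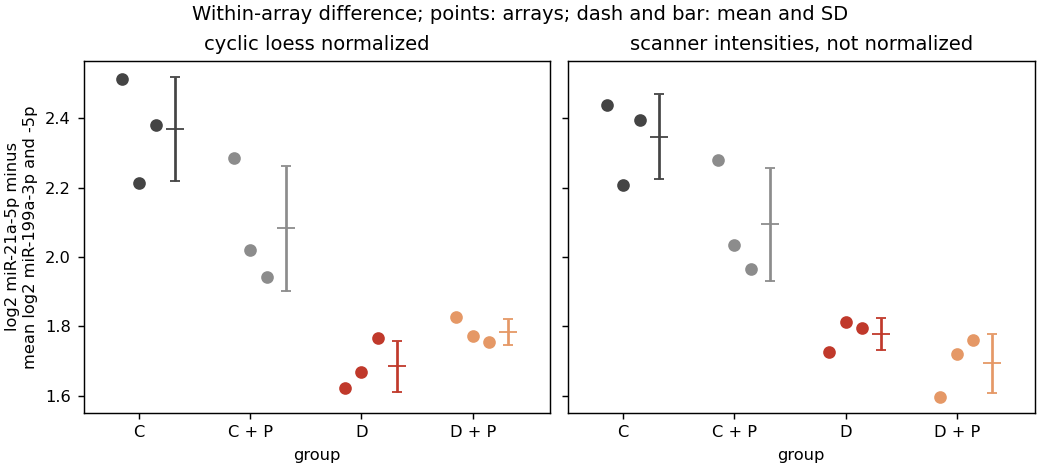
Log2 miR-21a-5p minus the mean log2 of miR-199a-3p and miR-199a-5p on each array (points) by group, with the group mean and SD beside them, after cyclic loess (left) and on scanner intensities (right). In both panels the 6 diabetic hearts lie below the 6 non-diabetic hearts.

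The arms of miR-199a were compared in the same way, as a description. The log2 difference of miR-199a-3p minus miR-199a-5p, looked at after their changes had been seen, was 1.17 ± 0.16 in C, 1.51 ± 0.26 in C + P, 1.43 ± 0.27 in D and 0.88 ± 0.24 in D + P (SD, n = 3). The D + P arrays, at 0.64, 0.89 and 1.12, were below all C + P arrays, at 1.23, 1.73 and 1.58. The D arrays were at 1.55, 1.63 and 1.12, so that D replicate 3 and D + P replicate 3 were level. The difference of D + P from D was -0.55 and that of C + P from C 0.35, with overlapping C and C + P arrays. An exact permutation test over arrays passed 0 of 6 comparisons. Between 2 groups of 3 arrays its smallest possible p is 0.1, so it could not pass there and decides nothing. For diabetes over both pargyline levels, where 0.005 is possible, the permutation p was 0.365. That test averages 0.27 in D versus C and -0.63 in D + P versus C + P, which have opposite signs, so it decides nothing about either.

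Across the 12 arrays the members varied together to different degrees. Normalized miR-199a-3p and miR-199a-5p correlated with r = 0.79 (permutation p = 0.0028, adjusted 0.0073) and rho = 0.71 (permutation p = 0.013, adjusted 0.019), and with r = 0.90 and 0.72 within the slides. Without the 2 arrays farthest from the median of miR-199a-3p, r was 0.71. MiR-21a-5p and miR-199a-3p gave r = 0.72 (permutation p = 0.0053, adjusted 0.0079) and rho = 0.68 (permutation p = 0.018, adjusted 0.022), 0.55 and 0.92 within the slides, and 0.63 without the 2 farthest arrays.

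MiR-21a-5p and miR-199a-5p gave r = 0.43 (permutation p = 0.17, adjusted 0.17) and rho = 0.43 (permutation p = 0.17, adjusted 0.17), with 0.59 and 0.73 within the slides and 0.21 without the 2 farthest arrays. With miR-199b-5p, r was 0.88 for miR-199a-3p, 0.79 for miR-21a-5p and 0.65 for miR-199a-5p (adjusted permutation p = 0.00042, 0.0073 and 0.025), and rho was 0.84, 0.83 and 0.75 (adjusted permutation p = 0.0049, 0.0049 and 0.014). Adjustment was over these 6 pairs. The arrays share groups and normalization, so these values include the differences between groups. With group means removed, r was 0.82 for miR-21a-5p with miR-199a-5p, 0.69 for miR-21a-5p with miR-199a-3p and 0.61 for miR-199a-3p with miR-199a-5p, and the order of these 3 pairs was thus turned around.

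The miRNAs most like miR-21a-5p over the 12 arrays were miR-142a-3p (r = 0.95), miR-223-3p (r = 0.90) and miR-146a-5p (r = 0.89). MiR-142 is a miRNA of blood-forming cells, miR-223 is known from neutrophils and macrophages, and miR-146a is an inflammation-responsive miRNA. These 3 are the tested ones among 6 leukocyte markers, the others (miR-142a-5p, miR-150-5p and miR-155-5p) having been detected on 7, 11 and 7 arrays. For miR-142a-3p the likeness ranked 1 also after quantile normalization and after scaling to the 75th percentile, while miR-146a-5p fell to rank 32 and 10. With group means removed, miR-142a-3p ranked 2 and miR-146a-5p 51. These other settings were looked at after the first ranks had been seen.

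MiR-142a-3p read 10.5, 7.66 and 7.23 in C, 26.9, 25.7 and 43.5 in C + P, 17.5, 19.1 and 15.4 in D, and 3.25, 14.8 and 19.3 in D + P (scanner intensities). It was, like miR-21a-5p, highest in C + P and lowest on D + P replicate 1. In summed normalized intensity, the 3 tested leukocyte markers were 25.8 to 36.3 for C, 56.8 to 63.2 for C + P, 38.0 to 52.0 for D and 11.2 to 34.1 for D + P. All 3 fell in D + P versus D and in D + P versus C + P, the 2 comparisons in which miR-21a-5p fell, with changes in D + P versus D of -1.09 for miR-142a-3p (limma adjusted p = 0.045), -1.30 for miR-223-3p (0.016) and -0.90 for miR-146a-5p (0.016). Over all 128 miRNAs, 35 fell in D + P versus D and 10 in D + P versus C + P. The markers' part in the miR-21a-5p result was not tested.

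Summed intensities of the other marker lists are given for the same arrays. The 5 tested cardiomyocyte markers summed to 6394 to 6768 for C, 7954 to 9069 for C + P, 7709 to 8840 for D and 4912 to 8034 for D + P. The 2 smooth muscle markers, miR-143-3p and miR-145a-5p, summed to 59.8 to 70.5 for C, 86.6 to 102.9 for C + P, 86.1 to 89.7 for D and 78.8 to 99.5 for D + P, with the C arrays below those of every other group. The endothelial marker miR-126a-3p was 669 to 719 for C and 612 to 899 in the other groups. The 3 red cell markers summed to 758 to 943 for C and 584 to 768 in the other groups. The part of these cell types in the members' changes was not tested.

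MiR-199a-3p was most like let-7f-5p (r = 0.98), miR-322-5p (r = 0.98) and let-7g-5p (r = 0.98), and its own other arm ranked 37. Let-7f-5p rose in D versus C by 0.99 (SE 0.29, limma adjusted p = 0.017) and fell by 0.91 in D + P versus D (SE 0.29, limma adjusted p = 0.027), close to the 0.91 and -0.80 of miR-199a-3p. MiR-199a-5p was most like miR-23a-3p (r = 0.91), miR-30e-3p (r = 0.90) and miR-23b-3p (r = 0.88). With group means removed these 3 fell to ranks 15, 27 and 35 (r = 0.70, 0.64 and 0.58), and after scaling to the 75th percentile miR-23a-3p was at rank 15 (r = 0.61). The 3 nearest miRNAs of miR-199a-3p stayed within rank 8 under each of these settings and quantile normalization. These r-values describe 12 arrays that share groups and normalization.

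**Figure D5:**
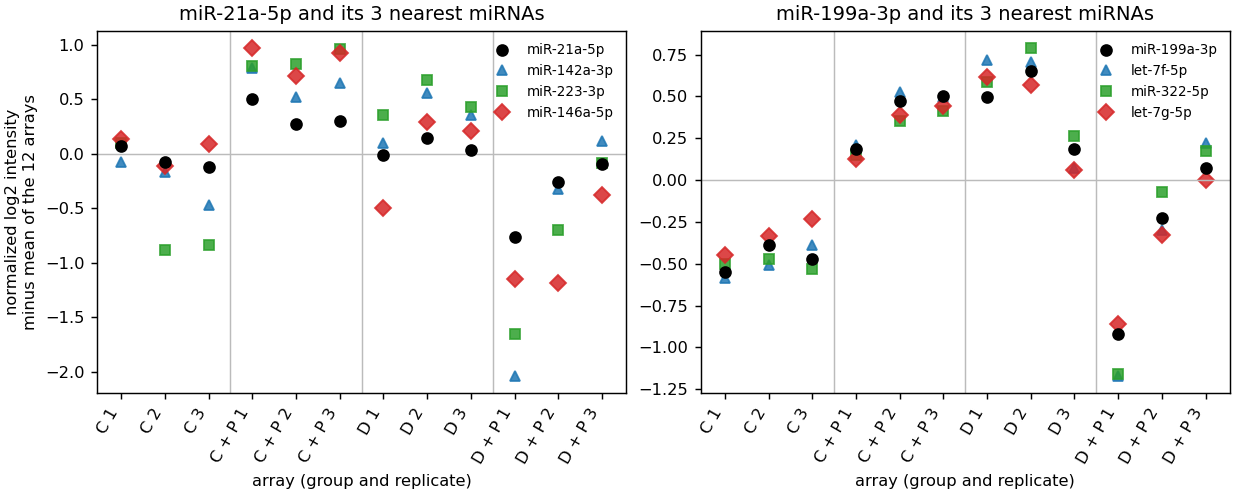
Normalized log2 intensity minus its mean over the 12 arrays (vertical axis) for miR-21a-5p (left) and miR-199a-3p (right), each with the 3 miRNAs of highest r, on every array (horizontal axis, by group and replicate). In both panels D + P replicate 1 is the lowest array for the member and for most of its neighbours.

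Other miRNAs linked to cardiac fibrosis did not move one way. Of 8 linked to more fibrosis, 4 were tested, and in D versus C 2 rose, miR-223-3p by 1.03 (SE 0.34, limma adjusted p = 0.028) and miR-34a-5p, a p53-induced miRNA, by 0.52 (SE 0.15, limma adjusted p = 0.014). MiR-208a-3p, encoded in a cardiac myosin gene, fell by 0.78 (SE 0.18, limma adjusted p = 0.0073). The median change of the 4 was 0.55, beside 0.02 over all 128. MiR-433-3p, miR-503-5p and miR-224-5p were detected on 0 arrays and miR-155-5p on 7.

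Of 12 linked to less fibrosis, 11 were tested, and 1 rose and 1 fell in D versus C, with a median of 0.08. These were miR-26b-5p, higher by 1.30 (SE 0.33, limma adjusted p = 0.0097), and miR-30a-5p, which fell by 0.52 (SE 0.18, limma adjusted p = 0.030). The miR-29 miRNAs, known to target collagen transcripts, gave 0.08 (miR-29a-3p), 0.10 (miR-29b-3p) and -0.19 (miR-29c-3p), none past the threshold. In D + P versus D, 3 of the 4 miRNAs linked to more fibrosis fell (miR-34a-5p, miR-142a-3p and miR-223-3p), of which 2 are also leukocyte markers, and 1 of the 11 rose and 1 fell. Over all 128 miRNAs, 31 rose and 33 fell in D versus C, and 34 rose and 35 fell in D + P versus D.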

How the data were processed

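MiRNAs were measured in 12 mouse hearts on Agilent arrays, 1 array per heart, and grouped by the sample titles. For each array the deposited scanner output gives an intensity, an error and a detection flag for 1881 miRNAs, with undetected miRNAs written as 0.1, and the authors' table holds normalized intensities of 209 miRNAs, made by a filter on detection and cyclic loess. The 21 control rows were left out. From the scanner intensities, the 128 miRNAs detected on all 12 arrays were put on the log2 scale and cyclic loess was run in limma 3.58.1 under R 4.3.3 (span 0.7, 3 iterations). LmFit and eBayes then gave the differences of the 4 group means. Benjamini-Hochberg adjustment covered the 128 miRNAs, with a threshold of 0.05.

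The 4 miRNAs, the marker and fibrosis lists and the tests were chosen with earlier results of these data known. Named are the members, their strands and seed relatives, the 3 miRNAs of highest Pearson r to each, and list examples. A planned within-array mean of 3 miRNAs used 2, and correlations that would have included miR-214-3p used miR-199b-5p, because miR-214-3p was not measured on all arrays. The planned permutation p of the within-array difference is not given. Alternatives were other normalizations, filters, tests, a replicate block, and each array left out in turn. A covariate of 10 control features and a filter of detection on at least 6 arrays were added after the data were seen. The fit was tested on simulated data. The number of arrays limits the precision. No 2 arrays held identical signals.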

Additional observations from a re-analysis of the deposited data

Results flagged for a closer look

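The change with diabetes differed between untreated hearts (D versus C) and pargyline-treated hearts (D + P versus C + P) by the interaction term of the limma fit for miR-199a-3p (-1.66, adjusted p = 0.0028), miR-21a-5p (-0.83, adjusted p = 0.0093) and miR-199a-5p (-0.76, adjusted p = 0.0094). The interaction passed for 70.3% of the 128 miRNAs tested. With control features as a covariate the values were -0.71, -0.27 and -0.34, and none passed.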

How the results depend on the processing

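The count of members past the threshold was 2 in D versus C and 3 for the interaction in each fit that left out 1 array. Of all miRNAs, 64 and 90 of 128 passed in these with all arrays, and 33 and 83 of 131 without C replicate 2. The members' count ranged from 0 to 3 in C + P versus C, 0 to 2 in D + P versus D and in D + P versus C + P, 0 to 1 in D + P versus C, and 0 to 2 for diabetes over both levels (2 without D + P replicate 1). The C + P versus C count was 0 without C replicate 2 or 3 or C + P replicate 2 or 3, fits in which 3 or 4 of all miRNAs passed. Quantile normalization gave 1 in D + P versus D and in D + P versus C + P, beside 34 and 7 of all 128 miRNAs. Scaling to the 75th percentile gave 1 in D versus C, C + P versus C, D + P versus D and the interaction, beside 56, 31, 53 and 76 of 128. It gave 0 in D + P versus C + P, beside 3 of 128. No normalization gave 0 in D + P versus D and in D + P versus C + P, beside 8 and 2 of 128. It gave 1 in D + P versus C, beside 18 of 128. The filter of detection in at least 1 group and the added filter on 6 arrays each gave 1 in C + P versus C, D + P versus D and D + P versus C + P. Both filters and the authors' values gave 2 for the interaction. The authors' values gave 1 in D versus C, beside 47 of 128. They gave 0 in C + P versus C, D + P versus D and D + P versus C + P, beside 29, 3 and 1 of 128. Fitting only the 2 groups compared gave 0 in D + P versus D and D + P versus C + P, beside 0 and 1 of 128. The t-test of the methods, with Benjamini-Hochberg in place of the paper's adjusted Bonferroni correction, gave 0 in both, beside 0 and 0 of 128. Holm adjustment gave 0 there too, beside 0 and 0, and 0 in D versus C and C + P versus C, beside 3 and 4 of 128. The covariate, which itself differed between the groups, gave 0 in every comparison. Same-numbered arrays did not pair (correlations of deviations -0.37 to 0.49). The replicate block gave 1 in D + P versus D and in D + P versus C + P, beside 58 and 8 of 128.

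Signs of changes that had not passed turned as follows. Scaling to the 75th percentile gave -0.033 for miR-21a-5p in D versus C, and for miR-199a-5p 0.20 in D + P versus D and 0.11 in D + P versus C + P. No normalization gave 0.29 for miR-21a-5p in D + P versus C. The authors' values gave -0.074 for miR-199a-3p and -1e-04 for miR-199a-5p in D + P versus C, and -0.067 for miR-199a-5p for diabetes over both levels. The covariate gave -0.24 for miR-21a-5p in D versus C, 0.051 for miR-199a-5p in D + P versus C + P, and for miR-199a-3p -0.14 in D + P versus C and -0.014 over both levels. With each array left out in turn, miR-199a-5p ranged from -0.21 to 0.033 in D + P versus C + P (highest without D + P replicate 1), and miR-199a-3p from -0.10 to 0.41 in D + P versus C and from -0.023 to 0.22 over both levels (both lowest without D + P replicate 3).

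The within-array difference kept its sign in D versus C, D + P versus C + P, D + P versus C and diabetes over both levels. Quantile normalization gave -0.0096 in D + P versus D, -0.47 in D + P versus C + P and -0.74 in D + P versus C. The 75th percentile and no normalization each gave -0.085 in D + P versus D. With 16 added it was -0.37 in D versus C, -0.065 in C + P versus C, -0.018 in D + P versus D, -0.39 in D + P versus C and -0.35 over both levels. The authors' values gave -0.41, 0.024, -0.052 and -0.46 in those first 4, and -0.48 in D + P versus C + P. The added filter, with miR-214-3p in the mean, gave -0.46 in D versus C, 0.31 in C + P versus C, -0.57 in D + P versus C + P and -0.26 in D + P versus C. The causes were not tested.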
